A study of Mus musculus with 12 samples.

Results

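The autophagy machinery of mouse blood neutrophils was followed through 36 genes, from the kinases that start autophagosome formation to the receptors that bring cargo. The genes were chosen by name, and all 36 were found among the 11494 genes of the deposited table. Of these, 34 reached 10 or more normalized reads in at least 6 libraries and were tested. The study compared 6 libraries from mice given control bone marrow (Control) with 6 from mice given marrow labelled LOY, for loss of the Y chromosome. All 12 libraries carry the treatment label Control, and each held 10000 sorted cells of blood that were Ly6G-positive, CD115-negative and RFP-positive. What the RFP reporter marks, how the Y chromosome was removed, and the strain and age of the mice are not given in the sources used here. Whether the libraries stem from separate mice is not stated, and the p-values below therefore describe the scatter among libraries, which may be technical.

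In macroautophagy a cup-shaped membrane, the phagophore, grows around cytoplasm, closes into an autophagosome and fuses with a lysosome. A kinase complex built on ULK1 starts the process, a lipid kinase complex marks the membrane with phosphatidylinositol 3-phosphate, and a conjugation system attaches ATG8 proteins such as LC3 to the lipid. In neutrophils autophagy is known to take part in granulocyte differentiation, in the handling of ingested microbes and in the release of granules and extracellular traps.

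Depth, in recovered reads, was 13743581 to 18459792 for Control and 17097739 to 19616066 for LOY. Of the listed genes, 20.5%, 21.7% and 17.3% were at 0 in Control 1, 2 and 12, and between 6.6% and 11.6% in each of the remaining 9 libraries. The Y-linked gene Ddx3y, a check of the labels, lay between 650.4 and 1348 normalized reads under the Control label and between 0 and 366.5 under the LOY label, and Eif2s3y between 1478 and 3171 and between 0 and 986. The LOY medians were 6.33 for Ddx3y and 8.09 for Eif2s3y. For each gene the highest LOY library held most of the normalized reads of that group. The neutrophil markers made up 84021 to 135700 of 1000000 reads under Control and 86843 to 117940 under LOY, with all 11 listed and S100a8 and S100a9 the most abundant. Of their log2 fold changes of LOY over Control, 4 were positive and 7 negative (limma, adjusted p from 0.60 to 0.94). The 2 with an unadjusted p under 0.05 were higher in LOY. Ltf stood at 99.3 ± 87.2 normalized reads under Control and 790 ± 508 under LOY (SD), and Camp at 64.9 ± 84.8 and 183 ± 45.1. Markers of red cells, led by Hba-a1 and Hbb-bs, summed to 4283 to 8890 of 1000000 reads under Control and 5906 to 38021 under LOY. The highest sums were 38021 in LOY 15 and 11137 in LOY 10. All 8 tested genes of this list had positive estimates, with a median log2 fold change of 0.73. Their limma adjusted p ran from 0.33 to 0.98, and 1 had an unadjusted p under 0.05. Over all tested genes 60.9% of the estimates were positive. Monocyte markers, led by Csf1r and Cd68, summed to 773 to 1494 under Control and 996 to 1476 under LOY, and the defining monocyte genes Ccr2 and Cx3cr1 had no row in the table used here. Platelet, lymphocyte and other granulocyte markers each summed to at most 88.9 in any library.

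Levels were compared between genes as reads per kilobase of exons per 1000000 reads, counting every exon annotated for a gene in GENCODE vM21 (GRCm38), whichever transcript the cells use. On this scale the members spanned nearly the whole range of the table. Gabarap, which encodes an ATG8 protein, was the highest, with 450 ± 81.0 in Control and 415 ± 57.5 in LOY libraries (SD, n = 6 each), and ranked 128 of 11472 genes with a known length. Map1lc3b, the gene of LC3B, followed at 186 ± 15.3 and 192 ± 9.99, and ranked 289. Sqstm1, the gene of the cargo receptor p62, stood at 106 ± 18.7 and 117 ± 12.6. Atg3, Vmp1, Atg101, Gabarapl2 and Atg7 came next, between 37.6 and 121 in the Control means. At the other end Atg14, Atg2b and Atg10 stood between 0.654 and 0.697 in the Control means and ranked between 9290 and 10147.

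**Figure D1:**
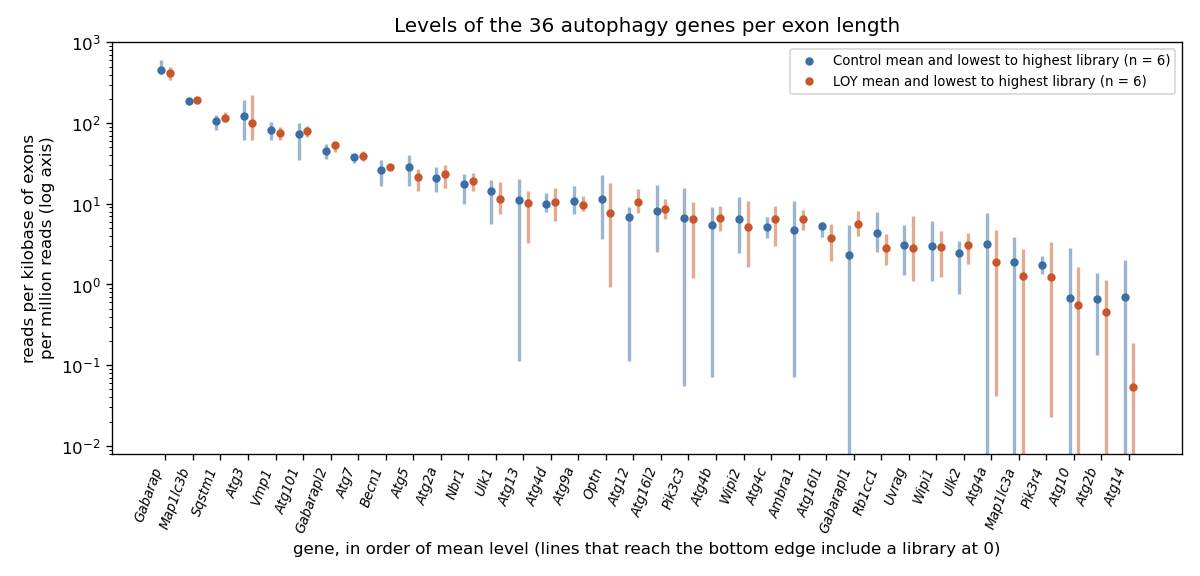
Mean level of each of the 36 autophagy genes in reads per kilobase of exons per 1000000 reads (log axis), with lines from the lowest to the highest of the 6 libraries of each group. Gabarap, Map1lc3b and Sqstm1 lead, and for several genes in the lower part of the order the lines run down to near 0 or to 0.

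Among genes with close relatives, Gabarap, Atg2a and Ulk1 led their families in every library, again per exon length. Of the summed level of the ATG8 genes, Gabarap took 62.6% to 72.4% in Control and 58.3% to 65.4% in LOY libraries, and Map1lc3b 20.8% to 30.7% and 26.4% to 31.8%. Gabarapl2 took 5.89% to 7.34% in Control and 6.94% to 9.86% in LOY libraries, while Map1lc3a and Gabarapl1 each took at most 1.27%. The order of Gabarap and Map1lc3b rests on their annotated exon lengths, 1844 and 7517 bases. In normalized reads, not divided by length, Map1lc3b was the higher, with means of 23277 in Control and 23461 in LOY libraries. Gabarap stood at 13890 and 12469. Of the summed level of Atg2a and Atg2b, whose products move lipids into the phagophore, Atg2a took at least 92.6% in every library. Ulk1 took 72.7% to 95.3% of the Ulk1 and Ulk2 sum in Control and 66.3% to 91.1% in LOY libraries. The share of Atg16l2 in the Atg16l1 and Atg16l2 sum was 55.5 ± 18.0% in Control and 69.7 ± 10.0% in LOY libraries (SD, n = 6 each), with overlapping groups. Wipi1 took 20.1% to 60.6% of the Wipi1 and Wipi2 sum in Control and 17.2% to 67.5% in LOY libraries. Of the ATG4 sum, Atg4a, Atg4b, Atg4c and Atg4d took mean shares of 12.3%, 21.3%, 22.4% and 44.0% in Control libraries. In LOY libraries these were 6.90%, 26.0%, 26.7% and 40.4%.

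When the 2 groups were compared, none of the 34 tested members passed the test over all genes (limma, adjusted p from 0.81 to 0.99), against 0.0205% of the 9742 genes tested. The Y-linked Ddx3y and Eif2s3y, whose groups did not overlap, did not pass either. Their log2 fold changes were -6.65 and -7.26 (limma adjusted p = 0.19 and 0.21). A member that did not pass may therefore still differ between the groups. An unadjusted p under 0.05 was reached by 3 members, 8.82% of those tested, beside 6.04% of all tested genes. With edgeR and with DESeq2 on the recovered reads 0 members passed as well, while 0 and 4 of all tested genes did. In each the unadjusted p was under 0.05 for 1 member, Rb1cc1, beside 286 and 405 of the 9742 tested genes. The estimate was above 0 for 17 members and below 0 for the other 17, while 60.9% of all tested genes had an estimate above 0 (48.9% with edgeR). The median member lay at -0.0033 on the log2 scale, beside a median of 0.14 over all tested genes. In no member did the groups separate fully, which 0.287% of all tested genes did (0.175% with LOY higher and 0.113% with LOY lower). The authors' deposited table gave an adjusted p under 0.05 to 0.493% of its genes and to 0 of the 36 members. It gave an unadjusted p under 0.05 to 5.53% of its genes and to 2 members, Atg14 and Rb1cc1. In these bulk samples a difference could come from the make-up of the sorted cells or from the RNA of each cell, and these cannot be told apart.

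The width of the intervals differed widely between members. For 14 of the 34 the 95% interval of the log2 fold change stayed within 2-fold in either direction, 41.2% of the members beside 30.7% of all tested genes. When only means of at least 500 were counted, the order was the other way round, with 13 of 24 members (54.2%) beside 72.4% of 3583 genes. The median standard error of these 24 members was 0.23. Of the 10 tested members below that mean the interval stayed within 2-fold for 1, and the median standard error was 1.06.

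**Figure D2:**
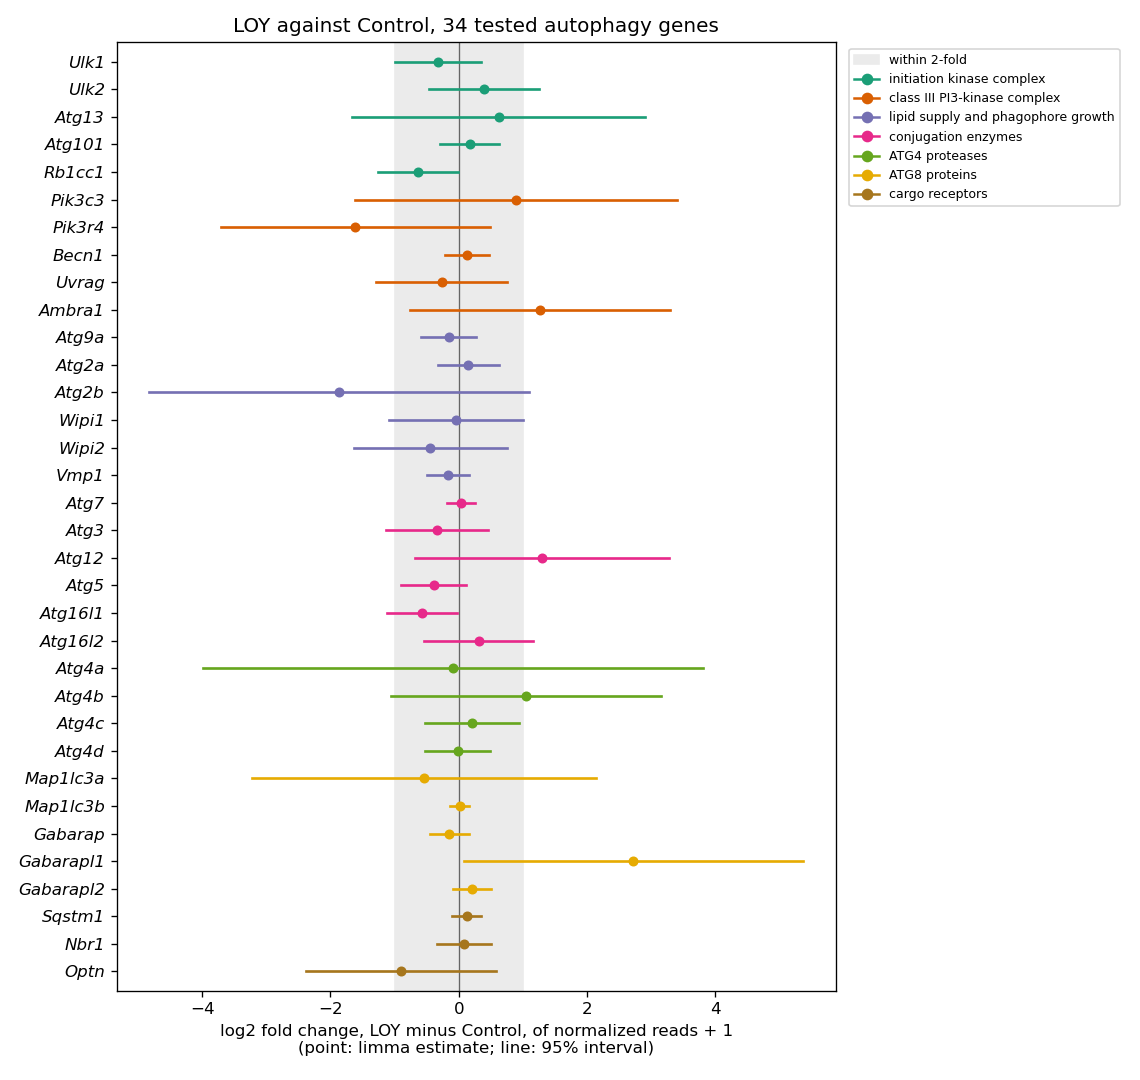
Log2 fold change of LOY over Control for the 34 tested autophagy genes on the log2(normalized reads + 1) scale, with 95% intervals from limma and colours by role; the grey band marks a 2-fold difference in either direction. Intervals of Map1lc3b, Atg7, Sqstm1, Gabarap and Vmp1 are narrow, while those of Atg4a, Atg2b, Gabarapl1 and Map1lc3a span several log2 units.

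The initiation complex consists of the kinases ULK1 and ULK2, the scaffold FIP200 encoded by Rb1cc1, and the subunits ATG13 and ATG101. Of its 5 genes 0 passed. Rb1cc1 (ENSMUSG00000025907, chromosome 1, 6206197 to 6276648, GRCm38) ranged from 633 to 2016 normalized reads in Control libraries, with a median of 947, and from 440 to 1029 in LOY libraries, with a median of 667. The 2 lowest LOY libraries, 5 and 10, lay below every Control library, and the other 4 overlapped them. The means were 1079 ± 495 and 669 ± 206 (SD, n = 6 each), and the log2 fold change was -0.64 ± 0.29 (SE; limma adjusted p = 0.81). It lay at -0.44 without Control 2, the library with the highest value.

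Ulk1 ranged from 586 to 2257 normalized reads among Control libraries (median 1620) and from 810 to 1862 in LOY libraries (median 1046). The lowest value of all 12 belonged to Control 18, and the other 5 Control libraries lay at 1451 or more. Its log2 fold change was -0.33 ± 0.31. It lay at 0.0028 without Control 1, 2 and 12 and at -0.59 without Control 18. Ulk2 ranged from 80.7 to 361 and from 168 to 445 normalized reads in the same groups (0.39 ± 0.39).

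Atg101, whose product stabilises ATG13, stood at 1930 ± 592 normalized reads under Control and 2080 ± 260 under LOY (log2 fold change 0.17 ± 0.21, 95% interval -0.30 to 0.63). Atg13 was at 8.60 normalized reads, or 8 reads, in Control 1, against 673 to 1574 in the rest of the Control group and 219 to 1015 in the LOY group. The estimate was 0.62 ± 1.05 with that library and -0.47 without it.

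The lipid kinase complex is built from the catalytic subunit VPS34 (Pik3c3), its partner VPS15 (Pik3r4) and Beclin 1 (Becn1), with ATG14 or UVRAG as alternative subunits and AMBRA1 as a regulator. Of its 6 genes 5 were tested and 0 passed. Becn1 (ENSMUSG00000035086, chromosome 11, 101285952 to 101302286) ranged from 2041 to 4344 normalized reads among Control libraries (median 3080) and from 3094 to 3630 in LOY libraries (median 3270). All LOY values fell inside the Control range, and the log2 fold change was 0.13 ± 0.16 (95% interval -0.21 to 0.47). Of the annotated exon length of Becn1, 43.9% overlaps Cntd1 on the opposite strand, and this kit does not mark strand.

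Pik3r4 ranged from 212 to 382 normalized reads among Control libraries (median 279) and from 3.46 to 536 in LOY libraries (median 132). LOY 4, 9, 10 and 19 lay below every Control library, LOY 15 lay above them all, and LOY 5 fell among them. The estimate was -1.61 ± 0.96, and was -0.74 without LOY 19, where 4 reads were found, and -0.52 with edgeR. Pik3c3 ranged from 4.30 to 1245 normalized reads under Control and from 85.6 to 728 under LOY (0.89 ± 1.15, and -0.17 without Control 1).

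Ambra1 was at 7.69 normalized reads in Control 2, against 309 to 1038 in the rest of the Control group and 482 to 825 in the LOY group. Its log2 fold change was 1.26 ± 0.93 with all libraries and 0.28 without Control 2. Uvrag ranged from 208 to 792 normalized reads under Control and from 163 to 1053 under LOY (-0.27 ± 0.47). Atg14, which directs the complex to the phagophore, was too low to be tested. Control 17 and 18 had 129 and 137 normalized reads of it, with 22.0 or less in the other 10 libraries, 3 of which were at 0. Where a library is at 0, up to 3 reads remain possible from counting error alone. The authors' deposited table has a log2 fold change of -3.72 for Atg14, with an adjusted p of 0.71.

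Phagophore growth draws on the vesicle protein ATG9A, the lipid transfer proteins ATG2A and ATG2B, the phosphoinositide-binding WIPI proteins and the membrane protein VMP1. Of these 6 genes 0 passed. Vmp1 (ENSMUSG00000018171, chromosome 11, 86583865 to 86683836) ranged from 4029 to 6955 normalized reads among Control libraries (median 5013) and from 3718 to 5773 in LOY libraries (median 4635). The groups overlapped over most of their ranges, and the log2 fold change was -0.17 ± 0.15 (95% interval -0.49 to 0.15). The hairpin of miR-21a lies within an annotated exon of Vmp1, over 92 bases at chr11:86584067-86584158 on the same strand. Reads over it fall on both annotated genes, and how they were assigned was not stated. They are not counts of the mature miRNA. The mature sequences of miR-21a, from RefSeq (GRCm38.p6), are shown because they lie inside an annotated exon of Vmp1, with the seed, bases 2 to 8, in capitals.
mmu-miR-21a-5p: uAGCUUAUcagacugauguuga
mmu-miR-21a-3p: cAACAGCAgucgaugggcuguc

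Atg2a stood at 2657 ± 748 normalized reads under Control and 2944 ± 778 under LOY (log2 fold change 0.15 ± 0.22). Atg9a stood at 1033 ± 312 and 903 ± 147 (-0.16 ± 0.19); 31.8% of its exon length is shared with the transcript Gm29253 on the same strand. Both intervals stayed within 2-fold. Atg2b was near or at 0 in LOY 10 and LOY 19, at 0 and 1.73 normalized reads, and ranged from 92 to 253 in the other 4 LOY libraries and from 32.0 to 300.2 in Control libraries. Its estimate of -1.86 ± 1.36 carried a 95% interval from -4.82 to 1.10, and was -0.52 with edgeR.

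Wipi2, which recruits the ATG16L1 complex, ranged from 417 to 2062 normalized reads under Control and from 273 to 1877 under LOY (log2 fold change -0.44 ± 0.55). Wipi1 ranged from 86.0 to 462 and from 86.4 to 347 (-0.04 ± 0.48). In both genes the spread within each group was several-fold, wider than the distance between the group means.

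The conjugation system uses ATG7 as its activating enzyme, ATG3 and ATG10 as carrier enzymes, and a complex of ATG12, ATG5 and ATG16L1 that places ATG8 proteins on the membrane. Of its 7 genes 6 were tested and 0 passed. Atg7 (ENSMUSG00000030314, chromosome 6, 114643097 to 114860614) was among the steadiest members. It ranged from 3606 to 5014 normalized reads among Control libraries (median 4402) and from 4098 to 5050 in LOY libraries (median 4401). The log2 fold change was 0.03 ± 0.10, with a 95% interval from -0.18 to 0.25.

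Atg16l1 (ENSMUSG00000026289, chromosome 1, 87755870 to 87792428) had the smallest p of the members. It ranged from 602 to 1024 normalized reads among Control libraries (median 868) and from 324 to 861 in LOY libraries (median 612). LOY 9 and LOY 10 lay below every Control library, and the other 4 LOY libraries overlapped them. The means were 843 ± 150 and 587 ± 203 (SD, n = 6 each), and the log2 fold change was -0.58 ± 0.25 (limma adjusted p = 0.81). Leaving out each library in turn gave values between -0.71 and -0.43. Atg5 stood at 1098 ± 326 and 821 ± 174 (-0.39 ± 0.23), with LOY 4 and 5 below every Control library. Atg16l2, whose product is related to ATG16L1, ranged from 377 to 2301 and from 872 to 1552 (0.31 ± 0.39).

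Atg12 was at 15.4 normalized reads, or 12 reads, in Control 2, against 922 to 1205 in the other Control libraries. LOY libraries ranged from 940 to 1849, and 3 of them lay above every Control library. The log2 fold change was 1.30 ± 0.91 with all libraries and 0.30 without Control 2. Atg3 ranged from 3406 to 9755 normalized reads under Control and from 3110 to 11579 under LOY (-0.34 ± 0.37). It was at 7385 or more in Control 2, 17 and 18 and in LOY 4, and at 4836 or less in the other 8 libraries. Atg10 was too low to be tested, at 0 in 5 of 12 libraries and at most at 77.0 normalized reads.

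ATG4 proteases trim ATG8 proteins before conjugation and release them from the membrane afterwards. Of the 4 genes 0 passed. Atg4d stood at 1210 ± 237 normalized reads under Control and 1242 ± 427 under LOY (log2 fold change -0.02 ± 0.23), and Atg4c at 288 ± 67.5 and 352 ± 143 (0.20 ± 0.34). Both intervals stayed within 2-fold. Atg4b was at 10.2 in Control 2, against 497 to 1213 in the rest of the Control group and 628 to 1318 in the LOY group (1.05 ± 0.97, and 0.0043 without Control 2).

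Atg4a, on chromosome X, ranged from 0 to 360 normalized reads under Control and from 1.73 to 210 under LOY, and the 95% interval of its log2 fold change ran from -3.99 to 3.81. Its counts are uncertain for a further reason. A copy on chromosome 3, Atg4a-ps, differs from the Atg4a transcript at 15 of 2115 compared bases, and 51.2% of the 50-base words of Atg4a also occur in it. Atg4a-ps has no row in the table used here. A stretch of 60 bases of the coding part of Atg4a and the matching stretch of the copy, both from GENCODE vM21 transcripts (GRCm38), show how alike they are, with the only differing base in capitals.
Atg4a: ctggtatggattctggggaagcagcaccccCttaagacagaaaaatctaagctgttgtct
Atg4a-ps: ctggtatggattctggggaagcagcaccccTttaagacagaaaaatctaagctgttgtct

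ATG8 proteins coat the growing membrane and bind cargo receptors. Of the 5 genes 0 passed. Map1lc3b (ENSMUSG00000031812, chromosome 8, 121590361 to 121598760) ranged from 20597 to 26302 normalized reads among Control libraries (median 23044) and from 21431 to 25770 in LOY libraries (median 23541). Both groups occupied the same range, and the log2 fold change was 0.01 ± 0.07, with a 95% interval from -0.14 to 0.16. Gabarap (ENSMUSG00000018567, chromosome 11, 69991143 to 69994951) ranged from 11948 to 19809 in Control libraries (median 12692) and from 10078 to 15631 in LOY libraries (median 11996). Control 2 was the highest library, 3 LOY libraries lay below every Control library, and the log2 fold change was -0.15 ± 0.14. Gabarapl2, whose product is also known as GATE-16, stood at 1752 ± 332 and 2008 ± 220 (0.21 ± 0.14, 95% interval -0.09 to 0.51).

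Gabarapl1 (ENSMUSG00000030161, chromosome 6, 129533160 to 129542346) had the largest estimate of the members. It was at 0 in Control 2 and at 2.15 normalized reads in Control 1, and at 83.3, 91.0, 98.9 and 178 in Control 17, 18, 12 and 6. LOY libraries ranged from 130 to 268 (median 177). All 6 LOY libraries lay above 5 of the Control libraries, and 3 of them also lay above Control 6. The means were 75.6 ± 67.1 and 185 ± 45.5 (SD, n = 6 each), and the log2 fold change was 2.72 ± 1.22 (limma adjusted p = 0.81). It was 0.71 without Control 1, 2 and 12, which had the most genes at 0. It was 0.14 once the share of genes at 0 entered the model, and 1.31 with edgeR. Of the exon length of Gabarapl1, 28.3% overlaps a transcript on the opposite strand. Map1lc3a, the gene of LC3A, stayed at or below 73.5 normalized reads in every library (-0.54 ± 1.23).

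**Figure D3:**
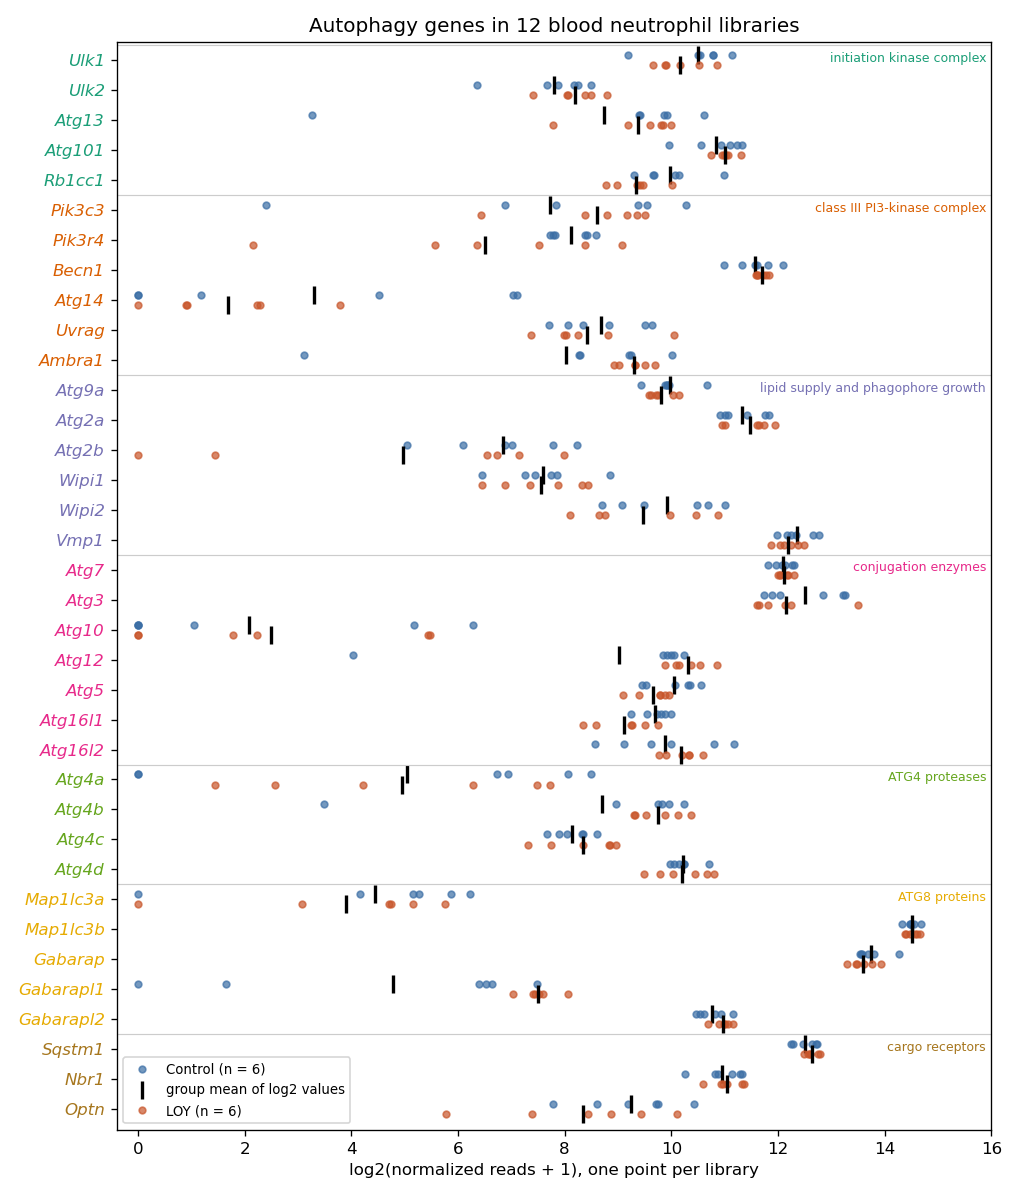
Log2(normalized reads + 1) of each autophagy gene in each library, with Control libraries in blue, LOY libraries in orange and black ticks at the group means of the log2 values. Map1lc3b, Atg7 and Sqstm1 form tight clusters in both groups, whereas Atg13, Pik3c3, Ambra1, Atg12, Atg4b and Gabarapl1 each have 1 or 2 Control libraries far below the rest.

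Cargo receptors link ubiquitin-marked material to ATG8 proteins. Of the 3 genes 0 passed. Sqstm1 (ENSMUSG00000015837, chromosome 11, 50199366 to 50210827) ranged from 4837 to 6829 normalized reads among Control libraries (median 6013) and from 5729 to 7096 in LOY libraries (median 6234). LOY 9 and 19 were the highest of the 12 libraries and Control 1 and 2 the lowest, and the log2 fold change was 0.12 ± 0.10 (95% interval -0.10 to 0.35). Nbr1 stood at 2036 ± 506 and 2134 ± 405 (0.09 ± 0.19). Optn, the gene of optineurin, ranged from 219 to 1365 normalized reads under Control and from 53.7 to 1106 under LOY (-0.90 ± 0.68), and LOY 9 and 10 lay below every Control library.

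Very low values of otherwise well-read members were concentrated in a few libraries. Of the 29 members with a median of 200 or more over the 12 libraries, 3 in Control 2 (Ambra1, Atg12 and Atg4b), 2 in Control 1 (Atg13 and Pik3c3) and 1 in LOY 19 (Pik3r4) were below 10% of their own median. These 6 values were between 0.843% and 1.56% of the median and rested on 4 to 12 reads. Over all 5282 genes with such a median, 7.48% were below that mark in Control 1 and 9.28% in Control 2, against 0.0379% to 1.82% in the other 10 libraries. The members' share in Control 1 and 2 together, 8.62% of 58 values, lay near the 8.38% of all those genes.

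**Figure D4:**
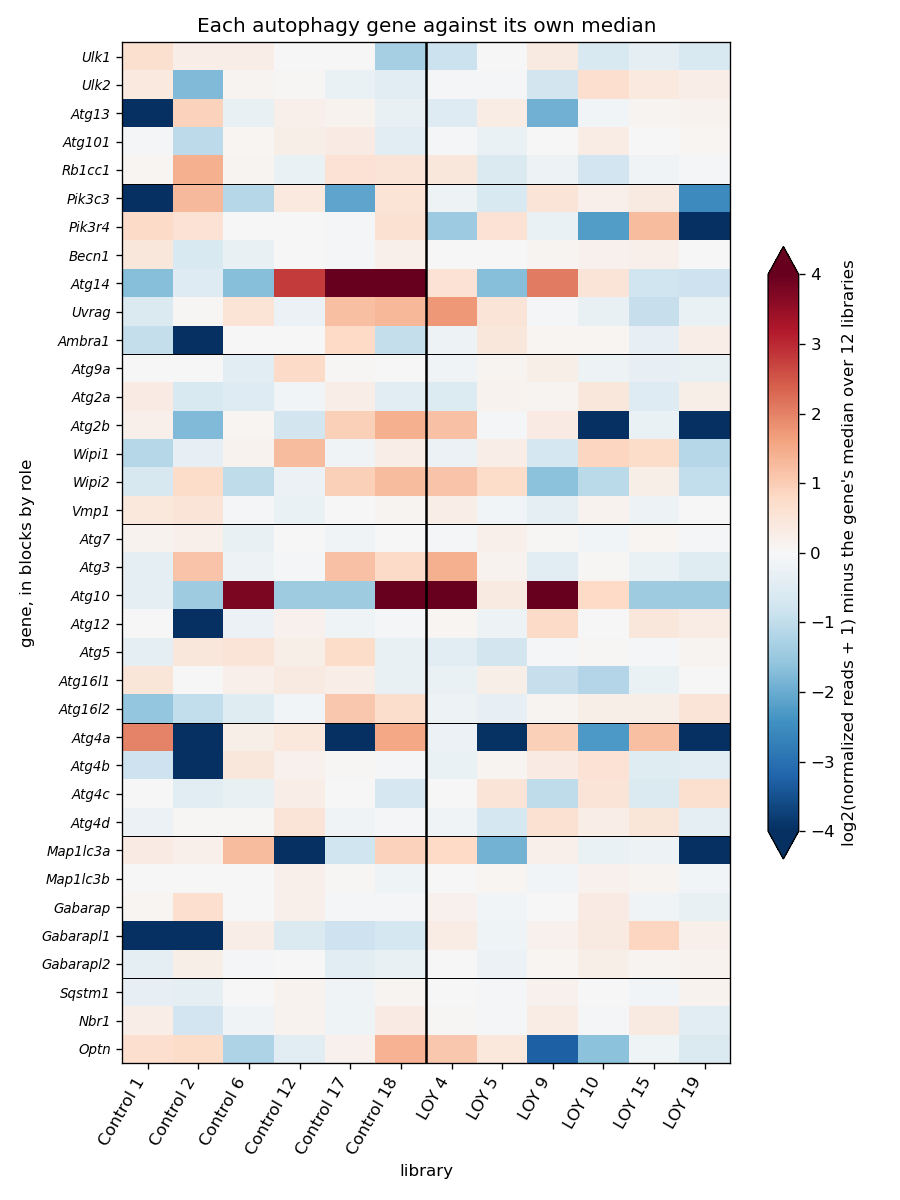
Log2(normalized reads + 1) of each autophagy gene in each library minus the median of that gene over the 12 libraries, with a colour scale from -4 to 4 and a black line between the Control and the LOY libraries. The dark blue cells of Atg13 and Pik3c3 in Control 1, of Atg12, Ambra1 and Atg4b in Control 2, and of Pik3r4 in LOY 19, are the values below 10% of the median described in the text; the other cells at -4 or below belong to genes with a median under 200.

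The wider pathway was read in 5 further lists with 112 genes, of which 94 were tested. None of them passed (limma, adjusted p from 0.53 to 0.99). An unadjusted p under 0.05 was reached by 5 with a positive and 2 with a negative estimate, beside 4.40% and 1.63% of all tested genes.

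Upstream control lies with the mTORC1 kinase complex, which restrains ULK1, with AMPK, which stimulates it, and with the Rag GTPases that bring mTORC1 to the lysosome. Of 29 tested genes in this list 10 had positive and 19 negative estimates, with a median of -0.14. Over all tested genes 60.9% of the estimates were positive, with a median of 0.14. That share fell to 48.9% with edgeR, and the split of this list was not counted under other settings. Prkab1, an AMPK subunit gene, stood at 2331 ± 304 normalized reads under Control and 2952 ± 432 under LOY (log2 fold change 0.34 ± 0.13, limma adjusted p = 0.77). Mtor itself stood at 318 ± 109 and 173 ± 50.5 (-0.85 ± 0.34, adjusted p = 0.79), and Rraga, which encodes RagA, at 644 ± 244 and 369 ± 118 (-0.73 ± 0.36). Each of the 3 overlapped between groups. Transcription factors of autophagy and lysosome genes were represented by 6 tested genes. Tfeb stood at 3450 ± 909 and 3128 ± 673 (-0.14 ± 0.19), Foxo3 at 845 ± 428 and 514 ± 190 (-0.57 ± 0.47), and Foxo4 was low in both groups (1.16 ± 0.94).

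A list of 20 tested genes held other factors that act on the phagophore or bind phosphatidylinositol 3-phosphate. Its largest estimate was that of Epg5, whose product is known as a tether of autophagosomes to lysosomes and is not counted in the fusion list. It was at 0 to 62.1 normalized reads in Control libraries and at 42.6 to 294 in LOY libraries, where only LOY 10 fell inside the Control range (log2 fold change 3.88 ± 0.99, limma adjusted p = 0.53). Its values in Control 1 and 2, the libraries with the most genes at 0, were 1.08 and 0. Control 6, 12, 17 and 18 were at 21.1, 12.8, 11.2 and 62.1. The authors' deposited log2 fold change for Epg5 was 3.05, with an adjusted p of 0.12 in their comparison. Tbk1, a kinase that phosphorylates cargo receptors, stood at 781 ± 312 and 1103 ± 192 (0.57 ± 0.25), and Rab1b at 3772 ± 685 and 4479 ± 422 (0.27 ± 0.13).

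Fusion with the lysosome was covered by 21 tested genes. Vps11, a subunit of the HOPS tethering complex, stood at 1430 ± 835 normalized reads under Control and 756 ± 174 under LOY (log2 fold change -0.79 ± 0.30, limma adjusted p = 0.79), and Control 1 alone reached 3041. Its partners Vps39 (2.64 ± 1.25) and Vps18 (2.23 ± 1.27) had a lowest Control value of 3.84 each. Among 18 tested selective receptors outside the members, 14 estimates (77.8%) were positive and 4 negative, with a median of 0.23, beside 60.9% positive over all tested genes. With the share of genes at 0 in the model the split was 8 positive and 10 negative, beside 46.3% positive over all genes. It was 13 and 5 with edgeR, beside 48.9%, and 15 and 3 with quantile normalization, beside 50.1%. With DESeq2 it was 11 and 7, beside 47.0%. Bnip3l, which removes mitochondria in maturing red cells, stood at 4355 ± 724 and 5480 ± 571 (0.34 ± 0.12, adjusted p = 0.76). Its highest values, 6183 and 6071, belonged to LOY 10 and LOY 15, which also had the highest red cell marker sums of the 12 libraries, 11137 and 38021. The part of red cell RNA in this difference was not tested. Sec62, an endoplasmic reticulum receptor gene, stood at 833 ± 143 and 1048 ± 86.0 (0.35 ± 0.15), and Wdfy3 at 1192 ± 321 and 1494 ± 345 (0.34 ± 0.21).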

How the data were processed

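RNA of 12 sorted neutrophil libraries was made into cDNA with SMART-Seq v4 and into libraries with Nextera XT, per the labels' protocols. Tools listed in the submitters' processing notes are STAR 2.5.2b, Subread 1.5.2, featureCounts, Trimmomatic 0.36 and bcl2fastq 2.17, with the build given as mm10 and as GRCm38. The deposit by the authors is 1 table that holds, for each gene, a normalized signal in every library, the log2 fold change and the unadjusted and adjusted p-values of their comparison, per the file headers; no source used here names the tool behind that comparison. Every value above 0 was a whole multiple of 1 step per library (100.0% within 0.02 reads), so the deposited signal is a read count divided by a size factor, and reads were recovered. Genes with a mean below 8.63 are not listed, and 16 names turned into dates were restored through their identifiers. How reads shared between genes were handled was not stated.

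The test was limma 3.58.1 in R 4.3.3 (trended, robust empirical Bayes) on log2(value + 1), for the 9742 genes that reached 10 in 6 or more libraries, with no covariate, and Benjamini-Hochberg adjustment over all of them at 0.05. Fold changes are on this scale, where the pseudocount understates the change of low genes. In turn, 1 or 2 libraries near 0 can give a larger value than edgeR, as for Pik3r4 and Gabarapl1. Alternatives were edgeR 4.0.16 and DESeq2 1.42.0 on the recovered counts, quantile normalization, pseudocounts of 0.5 and 5, no filter, a minimum mean of 50, a covariate for the share of genes at 0, each library left out, and Control 1, 2 and 12 left out together. The tests were run on simulated counts with known changes first. Members, lists and alternatives were chosen with earlier results of these data known. Named genes are all 36 members, the 3 genes of smallest p in each related list, Ddx3y, Eif2s3y and the most abundant markers. Further neutrophil and monocyte markers were named after their values were seen. Exon lengths and positions come from GENCODE vM21.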

Additional observations from a re-analysis of the deposited data

Results flagged for a closer look

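In 72 groups of 6 values (36 genes in 2 groups, on the log2(value + 1) scale) 10 held a highest or lowest library set apart from the other 5 by Dixon's criterion at the 95% level, where chance sets apart about 1 group in 20. Over all 9742 tested genes 13.1% of groups were set apart in this way, beside 14.7% of the groups of the 34 tested members. Of these, 7 lay in Control and 3 in LOY libraries, and 5 of the 10 were values of Control 1 or 2. On the low side, Control 2 had 15.4 normalized reads of Atg12 (922 to 1205 in the other Control libraries), 7.69 of Ambra1 (309 to 1038) and 10.2 of Atg4b (497 to 1213). Control 1 had 8.60 of Atg13 (673 to 1574). Control 18 had 586 of Ulk1 (1451 to 2257), and Control 12 was at 0 for Map1lc3a (16.9 to 73.5). LOY 9 had 219 of Atg13 (579 to 1015 in the other LOY libraries) and LOY 19 had 85.6 of Pik3c3 (334 to 728). On the high side, Control 2 had 19809 of Gabarap (11948 to 14222) and LOY 4 had 11579 of Atg3 (3110 to 4836).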

How the results depend on the processing

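No member and no gene of the related lists passed under any of the 21 alternatives, and 15 of 34 members kept the sign of their estimate in all of them; 52 of 713 estimates changed sign. Over the whole table, 2 genes passed with limma, 0 with edgeR, 4 with DESeq2, and 0 with quantile normalization, a minimum mean of 50, Control 1, 2 and 12 left out, or a covariate for the share of genes at 0. The unadjusted p was under 0.05 for 588 genes with limma, 286 with edgeR, 405 with DESeq2, 626 with quantile normalization, 414 with the minimum mean, 494 with the 3 libraries left out and 285 with the covariate. With 1 library left out the count that passed ran from 0 to 17: leaving out Control 6 gave 17, Control 18 gave 7, Control 12 gave 5, LOY 4 gave 3, Control 1 or 17 gave 1, and any of the other 6 gave 0. Members with an unadjusted p under 0.05 numbered 3, and 1 with edgeR, DESeq2 or quantile normalization, and 0 to 3 with 1 library left out. Members without overlap between groups numbered 0, and 0 to 1 with 1 library left out, the 1 being Gabarapl1 without Control 6. With all 12 libraries 0.287% of all tested genes had no overlap, and that share was not counted with a library left out. The median member lay between -0.091 and 0.10 with 1 library left out. The median of all genes moved from 0.14 to -0.0098 with edgeR and 0.00062 with quantile normalization.

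Sign changes by setting were as follows. With edgeR Atg13 was at -0.12, Pik3c3 at -0.071 and Atg4d at 0.053. With DESeq2 they were at -0.13, -0.087 and 0.036. With quantile normalization Atg4d was at 0.034, and with a pseudocount of 0.5 Atg4a was at 0.17. Without Control 1, 2 and 12 Ulk1 was at 0.0028, Atg13 at -0.19, Atg9a at 0.049, Atg16l2 at -0.34, Atg4a at 0.016, Atg4b at -0.19, Atg4d at 0.064 and Gabarap at 0.033. With a covariate for the share of genes at 0 Ulk1 was at 0.011, Atg13 at -0.26, Ambra1 at -0.29, Vmp1 at 0.0059, Atg12 at -0.0044, Atg16l2 at -0.31, Atg4b at -0.63, Atg4d at 0.079, Gabarap at 0.072, Sqstm1 at -0.016 and Nbr1 at -0.058.

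With 1 library left out, ranges that crossed 0 were -0.011 to 0.26 for Atg101, -0.47 to 1.00 for Atg13, -1.10 to 0.61 for Atg4a, -0.14 to 0.13 for Atg4d, -0.022 to 0.074 for Atg7, -1.43 to 0.24 for Map1lc3a, -0.023 to 0.047 for Map1lc3b, -0.052 to 0.18 for Nbr1, -0.17 to 1.40 for Pik3c3 and -0.28 to 0.21 for Wipi1. The cause of these changes was not tested. No paired analysis was possible because the 2 groups share no replicate number.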

Other observations

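Some members took high values in the same libraries, across both groups. Control 2, 17 and 18 had 1431, 1651 and 2062 normalized reads of Wipi2 and LOY 4 had 1877; in these 4 libraries Atg3 was at 7385 or more. Outside them Wipi2 reached 1403 in LOY 5 and 1007 in LOY 15 and was at 719 or less in the other 6 libraries. Uvrag was highest in LOY 4, at 1053, followed by 792 and 725 in Control 18 and 17, and Optn was highest in Control 18 and LOY 4, at 1365 and 1106. For these genes the pattern held only in part. Uvrag was at 324 in Control 2, below 456 in Control 6 and 446 in LOY 5. Optn was at 858 in Control 2 and 582 in Control 17, beside 833 in Control 1 and 691 in LOY 5. These 4 genes were singled out after their values were seen.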
